A study of Arabidopsis thaliana with 115 samples.

Results

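The core histone genes of Arabidopsis encode the H2A, H2B, H3 and H4 proteins around which DNA is wound in the nucleosome. The count files hold 33016 genes. The 37 described here were chosen by identity, with earlier results of these data known. They are 4 H2A genes, 2 H2A.X, 3 H2A.W, 3 H2A.Z, 8 H2B, 5 H3.1, 3 H3.3, 1 CENH3 and 8 H4 genes. They were followed in root protoplasts of 10-day-old Col-0 seedlings that transiently expressed 1 of 33 transcription factors (TFs) that respond early to nitrogen (N), each fused to the glucocorticoid receptor (GR), or GR alone from the empty vector (EV). All cells, EV included, received 20 mM KNO3 and 20 mM NH4NO3 (60 mM N), then 35 µM cycloheximide (CHX), which blocks translation, then 10 µM dexamethasone (DEX), which lets GR fusions enter the nucleus. Each TF was assayed in 1 of 6 batches, and every batch holds its own 3 EV libraries. There are 18 EV libraries and 97 with a TF, with 3 libraries per TF except FBH4 and HAT22, which have 2. The replicates are wells of 1 assay, so the p-values measure the spread between wells. Cells with a red and with a green vector were pooled in a well and then sorted, and a TF was expressed from the vector and not from its own promoter.

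A nucleosome holds H2A with H2B and H3 with H4. In plants H3.1 is known to be placed on DNA as it is copied and H3.3 outside of replication, whereas the CENH3 variant marks centromeres. H2A.X is phosphorylated at DNA breaks, H2A.W is found in silenced heterochromatin of plants and H2A.Z lies at the starts and bodies of genes. Transcripts of the replication-linked histones rise in S phase of dividing cells, and plant histone transcripts carry a polyA tail, so the polyA libraries used here capture them. Cells that no longer divide also exchange histones, mainly H3.3.

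Library totals ranged from 1542961 to 45372240 counts, with a median of 12336285, and were 1542961 to 9697384 in batches 5 and 6. The 10 most abundant genes took 4.69% to 8.14% of the counts in batches 1 to 4 and 18.3% to 49.5% in batches 5 and 6, the highest share being in replicate 3 of DIV1. Core histone genes took 0.159% to 0.461% of a library. Each of the 33 TF genes had its lowest value with its own vector above its highest value elsewhere, so the labels hold for all 33. Of the root cell type markers, all 10 were detected, and their summed level was 35.8 to 159 CPM over the EV libraries. The phloem gene SUC2, the most abundant marker on average over all libraries, alone gave 95.1 to 109 CPM in the EV of batch 4. Without SUC2 the EV sums were 28.7 to 108 CPM. For summed marker lists CPM is relative to the raw library total, and for single genes and histone sums to the scaled total. The 7 markers of photosynthetic cells summed to at most 2.33 CPM in EV, and the 3 root meristem markers to 0.0780 to 14.4 CPM.

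Promoter sequences are shown first, because 2 elements known from plant histone promoters were found in largely different genes. In the 250 bases before the annotated start, on either strand, the octamer CGCGGATC was found in 9 of 37 core histone genes (24.3%) and in 37 of 27443 promoters of protein-coding genes (0.135%), these 9 included. It was present in H2A, H2A.W, H3.1, H3.3 and H4 genes and in no H2B gene. The windows below are from the RefSeq TAIR10.1 assembly, 5′ to 3′ on the strand of the gene, with the octamer, or its reverse complement GATCCGCG, in capitals.
AT5G65360 (H3.1), chr5:26120690-26120717, minus strand: ttagacgtgaCGCGGATCactaaaatta
AT5G10400 (H3.1), chr5:3271060-3271087, minus strand: taacacaggaCGCGGATCgtaaagatac
HTA10 (AT1G51060, H2A), chr1:18926727-18926754, plus strand: ttcactctgaCGCGGATCctgaatctcg
HTA13 (AT3G20670, H2A), chr3:7229312-7229339, plus strand: cagtaacatcGATCCGCGtgattgttta
HTA6 (AT5G59870, H2A.W), chr5:24116319-24116346, minus strand: tacatagtcaCGCGGATCgtgctttatt
AT5G59690 (H4), chr5:24051393-24051420, plus strand: actgccatcaCGCGGATCactaatatga
AT1G07660 (H4), chr1:2368697-2368724, plus strand: acagatttcaCGCGGATCgcaatcttgg
The remaining octamer genes were AT1G09200 (H3.1, with 2 copies) and AT4G40040 (H3.3), and HTA10 also had 2 copies.

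The hexamer ACGTCA was found in 10 of the 37 promoters (27.0%), against 7.69% of all promoters, and 7 of the 10 belong to H2B genes. AT5G10400 had both elements, and 19 genes had neither. Below, the hexamer is in capitals.
HTB1 (AT1G07790, H2B), chr1:2412897-2412922, plus strand: agaaatatacACGTCAatgatcctcg
HTB2 (AT5G22880, H2B), chr5:7652894-7652919, minus strand: aaaagtaaccACGTCAgctatccacg
AT2G28720 (H2B), chr2:12326748-12326773, plus strand: aacgtgatccACGTCAccaacgatac
AT5G10980 (H3.3), chr5:3473616-3473641, minus strand: aaaactagccACGTCAtcgatcctcc
The reverse complement of the TGA core TGACG lies wholly within the hexamer, so each hexamer match is also a TGA core match. The TGA core was found in 18 promoters (48.6%), which include all 10 hexamer promoters, against 18.6% of all. Both shares count the hexamer promoters again. The E2F sites TTTCCCGC and TTTGGCGC were found in 0 and 2 promoters (0% and 5.4%), against 0.619% and 0.361% of all. Both matches of TTTGGCGC were in the H4 genes AT3G45930 and AT3G46320, whose windows around the site are identical. The nonamer CATCCAACG was in none (0.149% of all) and the G-box CACGTG in 2 (5.4%, against 6.49% of all). These are exact matches of letters and not tested binding sites.

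In EV cells the H3.3 genes were the most abundant. Levels are compared between genes as CPM per kb of gene model, averaged over the 18 EV libraries. On that scale H3.3 made up 40.4% of the core histone transcripts, H2B 22.1%, H2A 11.9%, H4 10.5%, H2A.X 6.44%, H2A.W 3.88%, H3.1 3.22%, H2A.Z 1.57% and CENH3 0.0402%. The gene with the highest mean was AT4G40040 (H3.3) at 471 CPM per kb, ahead of AT5G10980 (H3.3) at 366 and HTB9 (AT3G45980, H2B) at 240. This order turned with the batch. AT5G10980 led with 540 and 538 CPM per kb in batches 5 and 6, where AT4G40040 was at 463 and 467, and HTB9 was ahead of AT5G10980 in batches 1 and 4. Within the other classes HTA5 (AT1G08880, H2A.X) led at 137, HTA10 (H2A) at 122, AT1G07660 (H4) at 81.3, HTA7 (AT5G27670, H2A.W) at 58.7, HTA9 (AT1G52740, H2A.Z) at 32.3 and AT5G65360 (H3.1) at 31.3. HTR12 (AT1G01370), the CENH3 gene, was at 0.926. Also under 5 CPM per kb were HTA8 (AT2G38810), HTA11 (AT3G54560), HTA12 (AT5G02560), AT3G27360 and AT5G10390.

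**Figure D1:**
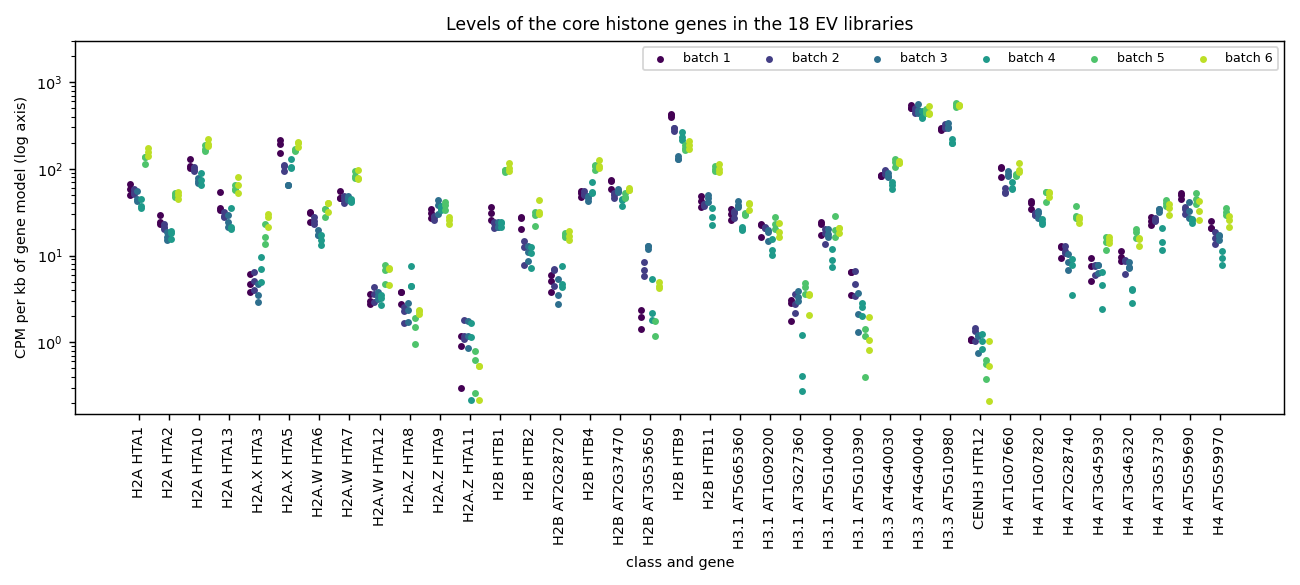
Each point is 1 EV library; the vertical log axis gives CPM per kb of gene model and the horizontal axis the 37 genes by class, with batches 1 to 6 in colour; libraries at 0 cannot be drawn on a log axis. The H3.3 genes AT4G40040 and AT5G10980 and the H2B gene HTB9 sit highest on average, and HTR12 and HTA11 lowest.

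EV levels also differed from batch to batch, which is described and not tested since batch and preparation cannot be told apart. HTA1 (AT5G54640, H2A) was at 33.6 ± 4.1 to 49.7 ± 7.3 CPM (SD, n = 3 each) in the EV libraries of batches 1 to 4, at 112 ± 12 CPM in batch 5 and at 135 ± 16 CPM in batch 6. The strand setting of the counting is not given in the sources used here, and HTA3, HTA9, HTA12, HTA13 and HTB9 each overlap 1 or 2 annotated genes on the opposite strand, so for these 5 genes reads of the 2 strands cannot be told apart. HTA3 (AT1G54690, H2A.X) went from 2.97 ± 0.69 CPM in batch 3 to 21.2 ± 3.9 CPM in batch 6. HTB9 ranged from 97.5 ± 4.7 CPM in batch 3 to 301 ± 10 CPM in batch 1 and was at 128 ± 9.2 CPM in batch 5. AT4G40040 stayed between 622 ± 65 and 778 ± 30 CPM. For this reason every TF below is compared with EV of the same batch. The groups come from bulk samples, so fewer cells of a type and less RNA per cell cannot be told apart.

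Across the 33 TFs, the core histone genes were called higher in 384 of 1221 gene and TF pairs (31.4%) and lower in 60 (4.91%). Over all 22883 genes tested, the shares were 4.59% higher and 4.99% lower, so the lower share lay at the background and the higher share above it. A call is an adjusted p under 0.05 in edgeR's quasi-likelihood test, adjusted over all genes within a TF. At least 10 of the 37 genes were higher in 16 TFs and lower in 3 TFs. The TFs of a batch share its EV libraries and are not separate tests, and batch 4 alone gave 222 of the 384 higher calls and 9 of the 16 TFs. Over the 24 TFs of the other batches, 162 of 888 pairs were higher (18.2%, against 4.87% of all genes) and 58 lower (6.53%, against 5.34%). Against the other TFs of the batch, over 32 TFs and with no EV library, 11.5% of pairs were higher (5.1% of all genes) and 9.12% lower (3.89%). With the replicate 2 libraries of every group left out, the totals against EV were 197 higher and 29 lower (16.1% and 2.38% of pairs), and the shares of all genes 1.95% and 2.15%. With each TF fitted only with the EV of its batch they were 402 higher and 39 lower (34.3% and 3.32% of the pairs tested, against 5.89% and 5.9% of all genes).

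By class, H2A genes were higher in 48.5% of their pairs, H2B and H3.3 genes in 39.4% each, H4 in 34.1%, H2A.X in 33.3%, H2A.W in 26.3%, H3.1 in 21.2%, H2A.Z in 4.04% and CENH3 in 0%. They were lower in 9.85% of pairs for H2A, 9.09% for H2A.X, 6.82% for H2B, 5.05% each for H2A.W and H3.3, 4.04% for H2A.Z, 2.42% for H3.1, 1.89% for H4 and 0% for CENH3. Without the TFs of batch 4 the higher shares were 29.2% for H2A, 26.4% for H3.3, 24.5% for H2B, 20.8% for H2A.X, 17.2% for H4, 12.5% for H2A.W, 10% for H3.1, 5.56% for H2A.Z and 0% for CENH3. The counts of TFs per gene below include the 9 TFs of batch 4. The class shares may also depend on how many genes of a class had low counts. AT3G27360 and AT5G10390, both H3.1, and HTR12, the CENH3 gene, had median EV counts of 19 to 21 and no calls. The other H3.1 genes, AT5G65360, AT5G10400 and AT1G09200, were higher in 16, 11 and 8 TFs. Most widely called were AT5G10980 (H3.3; 20 TFs higher, 1 lower), HTB4 (AT5G59910, H2B; 19 higher, 2 lower) and, with 16 higher and 4 lower each, HTA1, HTA13 and HTB1. Next came HTA2 (AT4G27230, H2A; 16 and 3), AT2G37470 (H2B; 17 and 2), HTA10 (16 and 2), HTA6 (15 and 2), HTB11 (AT3G46030, H2B; 15 and 2), AT5G65360 (16 and 1), HTB2 (15 and 1) and AT5G59970 (H4; 16 and 0). Also called higher in 15 TFs and lower in none were AT3G53730 and AT5G59690, both H4. The genes HTA7, AT2G28720, AT5G10400, HTA3, HTA5, AT1G07820 (H4), AT3G46320, AT3G45930, AT3G53650 (H2B) and AT4G40030 (H3.3) were higher in 10 to 12 TFs. The H3.3 gene AT4G40040 was higher in 9, AT1G09200 and AT2G28740 in 8 each, AT1G07660 in 4, HTA8 and HTA9 in 2 each, HTB9 in 1, and HTA11 and HTA12 in none, with 1 TF lower each. Without batch 4, AT5G10980 and HTB4 were higher in 11 TFs each, AT2G37470 in 8 and no other gene in more than 7. The octamer genes were higher in 4 to 16 TFs, with a median of 15, and the other 28 in 0 to 20, with a median of 11. The medians were 13 and 11 with and without the hexamer, and 13 and 10 with and without the TGA core. HTA8, HTA11, HTA12, HTR12, AT3G27360 and AT5G10390, the genes with the lowest EV levels per kb, all lacked the octamer. A part of these elements in the calls was not tested. HTR12, AT3G27360 and AT5G10390 were called in no TF by edgeR. At an unadjusted p under 0.05, HTR12 was higher in 4 TFs, AT3G27360 higher in 2 and lower in 1, and AT5G10390 in none; DESeq2 called AT3G27360 in 1 TF and the others in 0. Their median counts in EV libraries were 19 to 21, where that of HTA11, called in 1 TF, was 12 and that of AT3G53650, called in 10, was 25.5.

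**Figure D2:**
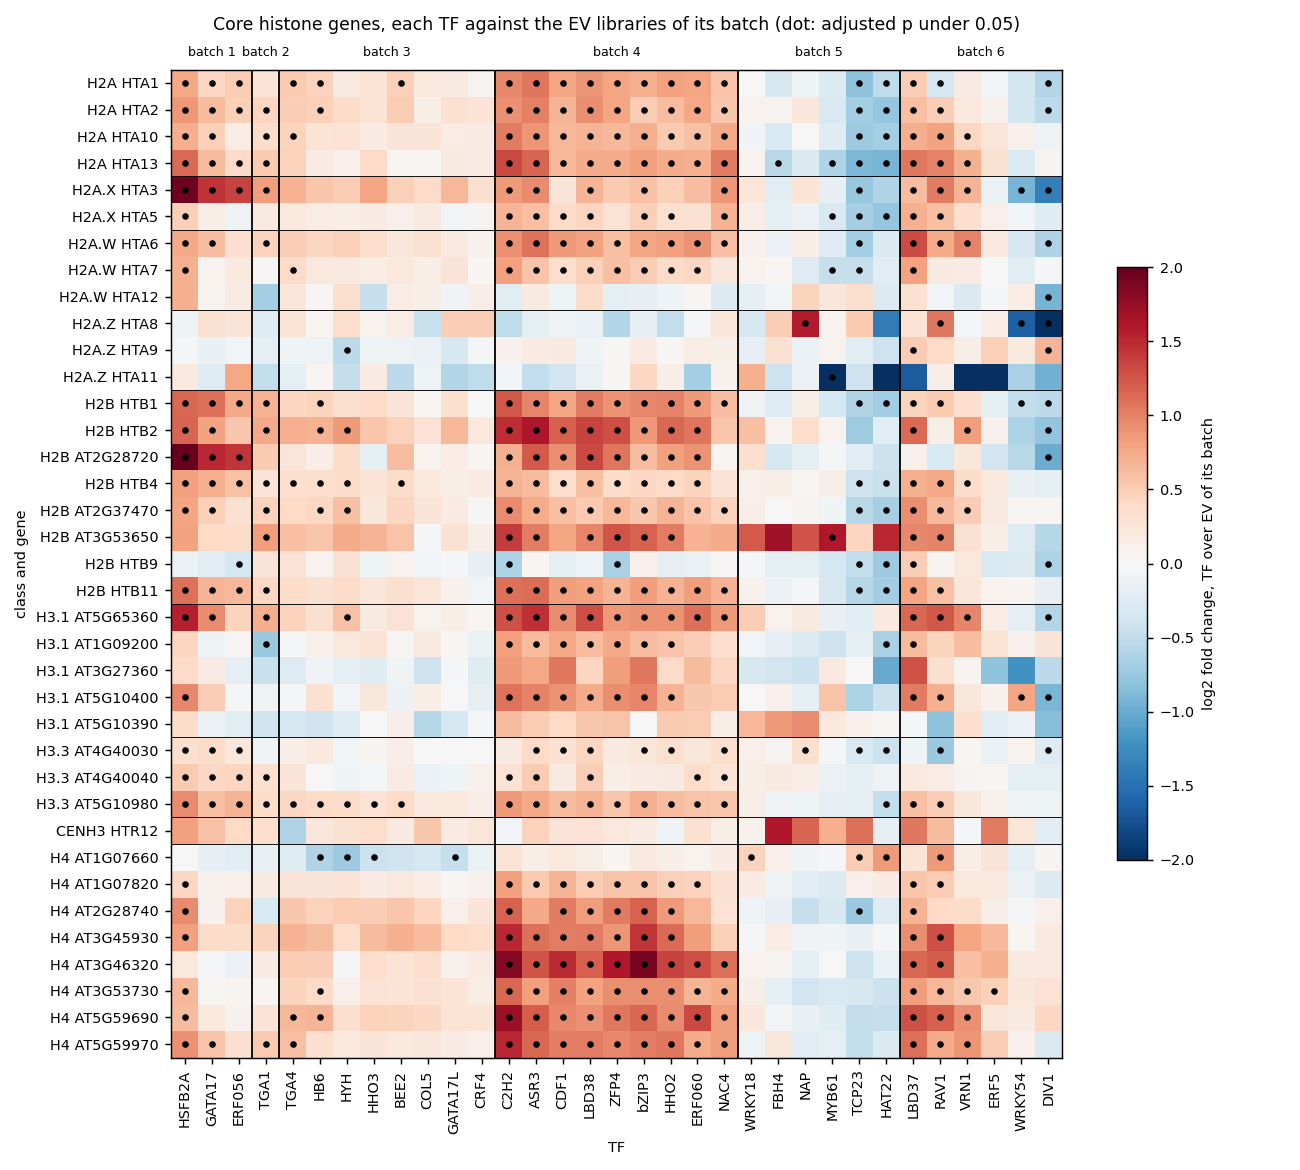
Rows are the 37 genes by class and columns the 33 TFs by batch; colour gives the log2 fold change of a TF over the EV of its batch, with values past 2 in either direction drawn at the end of the scale, and a dot marks a call. Red columns with dots fill batch 4 and stand beside blue ones for TCP23, HAT22 and DIV1 in batches 5 and 6.

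In batch 4, core histone genes were higher than in EV in the cells of all 9 TFs. LBD38 had 28 genes higher and 0 lower, where 2.1% of all genes were higher. The zinc finger factor labelled C2H2 had 27 higher and 1 lower (6.58% of all genes higher), ASR3 27 higher (1.74%), bZIP3 27 (6.12%), HHO2 26 (4.21%), CDF1 25 (4.1%), ZFP4 24, with 1 lower (3.82%), ERF060 20 (2.68%) and NAC4 18 (3.37%). The median log2 fold change of the 37 genes was 0.48 in NAC4 and 0.86 in C2H2, the ends of the range over the 9 TFs, and the median of all genes was within 0.02 of 0 in each. Without the replicate 2 libraries of every group, the counts were 22 for C2H2, 12 for LBD38, 15 for ASR3, 15 for bZIP3, 13 for HHO2, 9 for CDF1, 12 for ERF060 and 6 for NAC4. Without the replicate 1 libraries they were 15 for HHO2 and 11 for NAC4. Over all 33 TFs, 1.95% of all genes were higher without replicate 2 and 3.4% without replicate 1, against 4.59% in the main fit. All 444 calls made over the 33 TFs kept their sign in each of these 2 fits.

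The 9 TFs share the same 3 EV libraries, and the level in those libraries enters all 9 comparisons. For 15 of the 37 genes, all 3 EV libraries of batch 4 lay below all 27 TF libraries of the batch, as against 0.73% of all genes. With the replicate 3 libraries left out the number was 26, and the share of all genes was not computed. Fewer libraries leave fewer values to overlap, so 26 and 15 cannot be compared directly. Summed over the 37 genes, the EV libraries of batch 4 held 1633, 1630 and 1943 CPM, and the TF libraries 2066 to 2834 CPM. The EV libraries had 13054750 to 14803423 counts, inside the range of the TF libraries (7484604 to 45372240), and 5.01% to 6.09% of counts in the 10 most abundant genes, against 5.09% to 6.58%. Summed levels of the mitotic cyclins and kinases were 25.7 to 27.8 CPM in these EV libraries and 31.8 to 37.9 CPM in the libraries of C2H2, LBD38, ASR3, bZIP3 and HHO2. Without CYCB1;1, a mitotic cyclin and the most abundant gene of that list, the sums were 17.0 to 19.6 CPM and 18.9 to 26.4 CPM. Of its 13 tested genes, CYCB1;1 was the 1 called, in LBD38 and ASR3. Their part in the result was not tested. In batch 1, EV lay below all 9 TF libraries for 13 of the 37 genes (5.6% of all genes), and in batch 2 below all 3 for 20 (16.6%). In batches 3, 5 and 6 the number was 0 (0.17%, 0.485% and 0.157%).

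HTA1 stood at 30.4, 32.3 and 38.2 CPM in the EV libraries of batch 4, at 64.7, 65.0 and 67.5 CPM with C2H2 and at 49.4, 51.2 and 49.2 CPM with NAC4. The EV libraries did not overlap with either TF. Its log2 fold change in C2H2 was 0.97 (SE 0.13, adjusted p = 1.16e-09). AT5G10980, the H3.3 gene called in most TFs, stood at 164, 162 and 181 CPM in EV and at 278, 331 and 311 CPM with C2H2 (log2 fold change 0.86, SE 0.09, adjusted p = 4.19e-14). Here too the groups were apart.

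H4 genes gave the 3 largest called changes of batch 4. AT5G59690 was at 19.3, 19.7 and 17.5 CPM in EV and at 54.7, 62.7 and 68.0 CPM with C2H2, a log2 fold change of 1.71 (SE 0.17, adjusted p = 1.81e-14). AT5G59970 was at 8.54 ± 1.55 CPM (SD, n = 3) in EV and at 18.8, 30.3 and 23.7 CPM with C2H2 (2.83-fold, adjusted p = 8.06e-12). All 3 C2H2 libraries were above all 3 EV libraries for both. AT3G46320 and AT3G45930 rose from 2.34 ± 0.46 and 3.08 ± 1.38 CPM (SD, n = 3) in EV to 8.38 ± 0.80 and 8.78 ± 1.28 CPM with C2H2, and to 8.80 ± 0.97 and 8.30 ± 2.16 CPM with bZIP3. Their log2 fold changes were 1.83 (SE 0.25) and 1.51 (SE 0.27) in C2H2, and 1.90 (SE 0.25) and 1.43 (SE 0.27) in bZIP3, all 4 called. These 2 genes share 27.9% and 25.7% of their 50-base windows with other members, AT1G07660 shares 24.9% and AT1G07820 18.4%. How reads matching several places were counted is not given in the sources used here, so values of single H4 genes are uncertain. AT2G28740 (HIS4), another H4 gene, shares none and rose 1.18 (SE 0.22, adjusted p = 3.36e-05) on the log2 scale in bZIP3, and AT3G53650 (H2B) 1.17 (SE 0.29, adjusted p = 0.00199); in bZIP3 without the replicate 2 libraries the adjusted p of AT3G53650 was 0.212.

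The H2B gene HTB2 and the H3.1 gene AT5G65360 were among the largest changes in LBD38 and ASR3. As a class H3.1 did not lead, with a median log2 fold change of 0.61 in LBD38 and 0.77 in ASR3. The medians were 0.81 and 1.04 for H2A, 0.89 and 1.00 for H2B, and 0.88 and 0.97 for H4. HTB2 was at 6.06, 10.7 and 8.94 CPM in EV, at 21.1 to 22.9 CPM with LBD38 and at 25.2, 31.4 and 23.0 CPM with ASR3. The log2 fold changes were 1.36 (SE 0.23) and 1.62 (SE 0.23), with no overlap between EV and either TF. AT5G65360, the most abundant H3.1 gene, was at 15.6, 14.3 and 14.5 CPM in EV, at 36.1, 31.3 and 41.2 CPM with LBD38 and at 38.1, 43.5 and 40.5 CPM with ASR3. Its log2 fold changes were 1.29 (SE 0.19, adjusted p = 1.02e-06) and 1.46 (SE 0.19, adjusted p = 3.59e-08). AT2G28720 (H2B) rose by 1.32 (SE 0.22) in LBD38 and 1.23 (SE 0.22) in ASR3, from 5.51 ± 1.75 CPM (SD, n = 3) to 13.7 ± 2.5 and 12.9 ± 1.4 CPM. With replicate 2 left out its adjusted p was 0.0564 and 0.0536. AT3G46320 rose by 1.19 (SE 0.26) in LBD38 and by 1.26 (SE 0.27) in ASR3, with an adjusted p of 0.0776 and 0.0533 without the replicate 1 libraries. In HHO2 cells the largest changes were those of AT3G46320 at 1.36 (SE 0.26), HTB2 at 1.14 (SE 0.23), AT3G45930 at 1.14 (SE 0.28; adjusted p = 0.143 without the replicate 1 libraries) and AT5G59970 at 1.05 (SE 0.18).

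**Figure D3:**
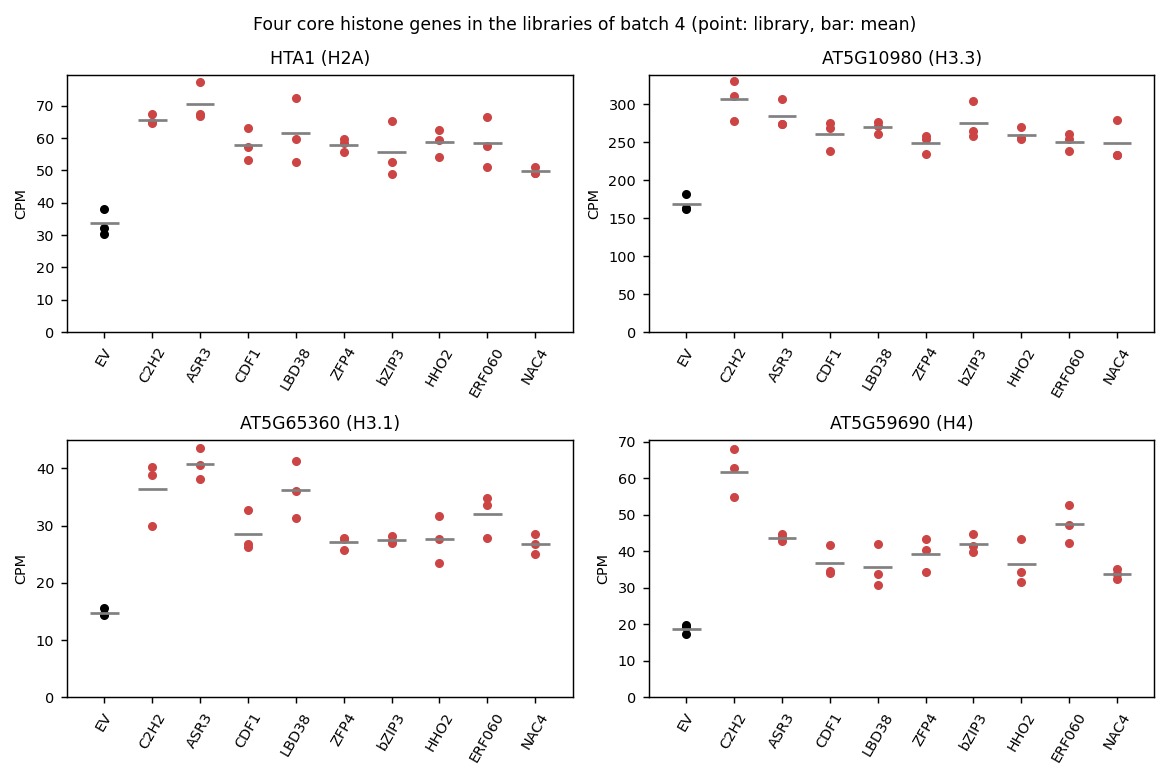
Each panel shows 1 gene in batch 4, with CPM on the vertical axis and EV and the 9 TFs on the horizontal axis; points are libraries and bars means. The 3 EV points lie below all 27 TF points for HTA1, AT5G10980, AT5G65360 and AT5G59690, and the C2H2 points are the highest for AT5G59690.

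Against the mean of the other 8 TFs of batch 4, a contrast without the EV libraries, most of these calls were not made. C2H2 had 14 genes higher and 1 lower, where 3.4% of all genes were higher; without the replicate 3 libraries it was 4 and without the replicate 2 libraries 6. AT5G59690 differed by 0.66 (SE 0.11, adjusted p = 2.32e-06) and AT5G59970 by 0.53 (SE 0.11, adjusted p = 0.00033) on the log2 scale in this contrast. LBD38 and bZIP3 had 2 genes higher each (1.7% and 4.28% of all genes), ASR3 had 1 (1.22%) and HHO2 0 (1.87%), with 0 higher and 2 lower at an unadjusted p under 0.05 and 0 higher in DESeq2. Left-out replicates gave 0 to 1 genes for LBD38, 0 to 2 for bZIP3 and 0 to 3 for ASR3. NAC4 had 1 gene higher and 9 lower, where 8.04% of all genes were higher and 3.37% lower. The median of the 37 genes ran from -0.24 in NAC4 to 0.24 in C2H2.

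In batch 1, HSFB2A, a class B heat shock factor chosen for description after its values were seen, had 25 genes higher and 0 lower (9.68% of all genes higher). GATA17 had 17 higher (6.28%) and ERF056 11 higher and 1 lower (8.02%). Left-out replicates lowered GATA17 to 8 (replicate 2) and ERF056 to 7 (replicate 1). AT2G28720 (H2B) was at 5.04, 3.80 and 5.95 CPM in EV and at 19.2, 20.4 and 22.3 CPM with HSFB2A, a log2 fold change of 2.06 (SE 0.22, adjusted p = 1.57e-13). HTA3 (H2A.X) was at 3.74, 3.02 and 4.89 CPM in EV and at 14.7, 15.9 and 13.8 CPM with HSFB2A, a change of 1.94 (SE 0.22, adjusted p = 1.68e-12). Neither gene overlapped with EV, and for both GATA17 and ERF056 lay between. AT5G65360 changed by 1.55 (SE 0.19) and HTB2 by 1.16 (SE 0.21), and AT1G07660 by -0.02 (SE 0.11, adjusted p = 0.952).

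Against the other 2 TFs of batch 1, HSFB2A had 18 genes higher and 0 lower (4.41% of all genes higher), and 5 without the replicate 2 libraries or 11 without the replicate 3 libraries. AT5G65360 differed by 0.85 (SE 0.15, adjusted p = 9.99e-06), AT2G28720 by 0.59 (SE 0.17, adjusted p = 0.0125) and HTA3 by 0.54 (SE 0.17, adjusted p = 0.023). HTB2 differed by 0.48 (SE 0.17, adjusted p = 0.0616). In batch 1 the root cell type markers summed to 48.7 to 60.5 CPM with HSFB2A and 35.8 to 46.6 CPM in EV, and the mitotic genes to 36.2 to 47.3 CPM and 20.2 to 24.5 CPM. These sums do not describe the lists as a whole. Without CYCB1;1 the mitotic genes summed to 17.1 to 26.0 CPM with HSFB2A and 14.04 to 18.9 CPM in EV, and the median log2 fold change of the 13 tested was 0.03, with 1 higher and 1 lower. Of the 10 root markers 2 were higher and 3 lower, with a median of -0.28. Their part in the result was not tested. TGA1, alone in batch 2, had 15 genes higher and 1 lower (9.01% of all genes higher), and 6 without the replicate 1 or the replicate 2 libraries. The gene lower in TGA1 cells was AT1G09200 (H3.1; log2 fold change -0.75, SE 0.18, adjusted p = 0.000977).

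Batch 3 had few calls. HB6 had 9 genes higher and 1 lower (2.47% of all genes higher), TGA4 7 higher (0.638%), HYH 5 higher and 2 lower (1.98%), BEE2 3 higher (0.302%) and HHO3 1 higher and 1 lower (1.03%). GATA17L had 1 lower (2.62% of all genes lower). COL5 and CRF4 had 0 genes called in edgeR (1.88% and 0.673% of all genes higher). At an unadjusted p under 0.05 COL5 had 7 higher and 1 lower and CRF4 0, and DESeq2 called 1 gene lower in COL5 and 0 in CRF4. HB6, TGA4 and HYH without the replicate 2 libraries had 0 genes higher, and without the replicate 1 libraries 2, 1 and 3. BEE2 had 0 without replicate 1 or 2 and 1 without replicate 3, when TGA4 had 4 and HB6 6. With the EV of the batch alone the counts were 15 for HB6, 12 for TGA4, 9 for BEE2 and 8 for HYH. More of all genes were called in those fits too, with 5.89% higher over all TFs, against 4.59% in the main fit. The shares of all genes for HB6, TGA4, BEE2 and HYH in those fits are not given, so the rise in counts is described only. AT5G10980 was 0.42 higher (SE 0.09, adjusted p = 0.00142) with TGA4 on the log2 scale.

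AT1G07660 (H4) was called against the direction of most other called genes in HB6, HYH, HAT22 and TCP23. In GATA17L and WRKY18 it was the only gene called, and in RAV1 it went with most called genes. It was the gene called lower in HB6, HHO3 and GATA17L and 1 of the 2 in HYH, where it was at 38.2 CPM on average against 63.0 CPM in EV (log2 fold change -0.73, SE 0.12, adjusted p = 2.6e-06). It was also the only gene called higher in HAT22, TCP23 and WRKY18, and was higher in RAV1 too. In batch 5 it was at 61.2, 58.9 and 63.0 CPM in EV, at 113 and 107 CPM with HAT22 and at 83.4, 82.4 and 97.9 CPM with TCP23, with no overlap. The log2 fold changes were 0.85 (SE 0.13, adjusted p = 1.6e-07) and 0.51 (SE 0.12, adjusted p = 0.00201). HTB9 (H2B) was higher in 1 TF (LBD37) and lower in 6, of which ERF056, C2H2 and ZFP4 had most called genes higher and HAT22, TCP23 and DIV1 most lower. With C2H2 it was at 113 CPM on average and at 172 CPM in EV (log2 fold change -0.61, SE 0.12, adjusted p = 4.6e-05).

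In batch 5 the core histone genes fell in the cells of 2 TFs. TCP23 had 15 genes lower and 1 higher (4.11% of all genes lower), with a median log2 fold change of -0.41. HAT22, chosen for description after its values were seen and with 2 libraries only, had 13 lower and 1 higher (6.57% of all genes lower), with a median of -0.43. MYB61 had 4 lower and 1 higher (4.73% lower), FBH4 1 lower (2.63% lower), NAP 2 higher (4.87% higher) and WRKY18 1 higher (3.54% higher). Without the replicate 2 libraries the lower counts were 8 in TCP23 and 2 in HAT22, whose fit then rests on 1 library assumed to vary like the other groups. MYB61 had 1 lower without the replicate 2 or the replicate 3 libraries. With the EV of the batch alone TCP23 had 7 and HAT22 12. Replicate 3 of TCP23 stood apart from the other two, with a Pearson's r of 0.945 and 0.942 to them against 0.985 between them, over all genes tested on the log2(CPM + 1) scale. Its H3.1 genes summed to 84.3 CPM, against 40.7 and 39.1 CPM in the other two and 55.5 to 70.8 CPM in EV. Without the replicate 3 libraries TCP23 again had 15 lower and 1 higher.

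All 4 H2A genes were called lower in both TFs. HTA13 was at 38.0, 38.8 and 43.1 CPM in EV, at 22.8, 19.9 and 21.6 CPM with TCP23 and at 24.4 and 17.3 CPM with HAT22. HTA1 was at 119, 98.0 and 118 CPM in EV and at 66.7, 74.4 and 47.3 CPM with TCP23. The groups did not overlap for either gene. HTA13 fell by 0.89 (SE 0.16, adjusted p = 1.9e-05) in TCP23 and by 0.93 (SE 0.18, adjusted p = 2.33e-05) in HAT22, and HTA1 fell by 0.81 (SE 0.13, adjusted p = 2.28e-06) in TCP23. HTA13 without the replicate 2 libraries had an adjusted p of 0.0543 in HAT22. HTA3 and AT2G28740 fell by 0.76 (SE 0.24, adjusted p = 0.0275) and 0.74 (SE 0.24, adjusted p = 0.027) in TCP23, and neither passed the threshold when any replicate was left out (adjusted p = 0.0512 to 0.336) or with the EV of the batch alone (0.207 and 0.104). In HAT22, HTA2 fell by 0.77 (SE 0.18, adjusted p = 0.00068) and HTA5 by 0.77 (SE 0.12, adjusted p = 2.93e-07), and without the replicate 2 libraries both missed the threshold (adjusted p = 0.0601 and 0.0652).

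Against the other TFs of batch 5, TCP23 had 15 genes lower and 0 higher (3.27% of all genes lower) and HAT22 12 lower and 1 higher (6.1%). Left-out replicates gave 6 to 9 lower for TCP23. No such range is given for HAT22, which rests on 1 library without replicate 1 or 2 and loses none without replicate 3. HTA1 differed by -0.57 (SE 0.11, adjusted p = 8.95e-05) in TCP23 and HTA5 by -0.54 (SE 0.11, adjusted p = 2.53e-05) in HAT22. Summed mitotic genes were at 18.6 to 32.1 CPM in EV, 10.7 to 25.4 CPM in TCP23 and 17.6 to 24.1 CPM in HAT22. Without CYCB1;1 the mitotic sums were 5.06 to 9.79 CPM, 5.13 to 9.0 CPM and 1.93 to 5.73 CPM, with 0 of 13 genes called in either TF. The root cell type markers were at 100.02 to 110 CPM, 95.7 to 122 CPM and 98.5 to 109 CPM, with 2 of 10 higher in TCP23, 1 higher in HAT22 and 0 lower. Their part in the result was not tested.

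Batch 6 held both directions. LBD37, a lateral organ boundaries domain factor, had 27 genes higher and 0 lower (4.42% of all genes higher), with a median log2 fold change of 0.71. RAV1, chosen after its values were seen like DIV1, had 22 higher and 2 lower (12.2% higher). VRN1 had 11 higher (1.71%) and ERF5 1 higher (3.47%). DIV1 had 13 lower and 1 higher (15.4% of all genes lower) and WRKY54 3 lower and 1 higher (5.31% lower). Without the replicate 2 libraries LBD37 had 16, RAV1 15 and VRN1 0 genes higher, and without the replicate 1 libraries VRN1 had 4. WRKY54 had 1 lower without the replicate 2 libraries. DIV1 had 5 lower without the replicate 3 libraries, among them the DIV1 library with 49.5% of its counts in 10 genes, and 3 with the EV of the batch alone. These were 13.5% and 9.09% of the members tested, where 9.38% and 6.9% of all genes were lower in the same fits, so in both the share of the members was near that of all genes.

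HTA6 (H2A.W) showed the spread within the batch. It was at 31.1, 24.6 and 31.7 CPM in EV, at 69.1, 71.1 and 75.2 CPM with LBD37 and at 21.9, 17.9 and 16.3 CPM with DIV1, with no overlap between any of the 3 groups. The level was 2.47-fold that of EV in LBD37 (adjusted p = 3.35e-09), and the log2 fold change was -0.61 (SE 0.19, adjusted p = 0.0106) in DIV1. AT5G65360 was at 28.4, 24.0 and 29.2 CPM in EV, at 52.4, 60.3 and 68.8 CPM with LBD37 and at 72.0, 60.5 and 61.5 CPM with RAV1. Both TFs lay above EV in all libraries, by 1.15 (SE 0.20, adjusted p = 6.44e-06) and 1.25 (SE 0.20, adjusted p = 3.39e-07) on the log2 scale. AT5G59690 (H4) was 2.41-fold higher in LBD37 and 2.29-fold in RAV1, and AT3G46320 changed by 1.16 (SE 0.24) and 1.22 (SE 0.24). AT3G45930 changed by 1.29 (SE 0.26) in RAV1. AT3G46320 without the replicate 2 libraries had an adjusted p of 0.0874 in LBD37.

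The 2 genes lower in RAV1 cells were AT4G40030 (H3.3), at 164, 153 and 153 CPM in EV and 85.1, 103 and 91.9 CPM with RAV1 (log2 fold change -0.74, SE 0.09, adjusted p = 3.39e-11), and HTA1 (-0.33, SE 0.13, adjusted p = 0.0421). In DIV1 cells HTA3 (H2A.X) was at 6.66, 5.76 and 14.6 CPM, against 24.3, 22.5 and 16.9 CPM in EV, and did not overlap with it. It fell by 1.36 (SE 0.23, adjusted p = 1.08e-06). AT2G28720 fell by 0.99 (SE 0.24, adjusted p = 0.00084), HTA12 (H2A.W) by 0.93 (SE 0.33, adjusted p = 0.0254) and AT5G10400 (H3.1) by 0.91 (SE 0.28, adjusted p = 0.00921). The latter 3 missed the threshold without the replicate 2 libraries (adjusted p = 0.0795, 0.258 and 0.149), HTA12 and AT5G10400 without the replicate 3 libraries (0.0557 and 0.0860), and all 3 with the EV of the batch alone (0.0657, 0.141 and 0.172). HTA12 was called in no other TF, and AT5G10400 was at 12.4, 8.09 and 1.66 CPM in the 3 DIV1 libraries, the lowest in replicate 3.

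**Figure D4:**
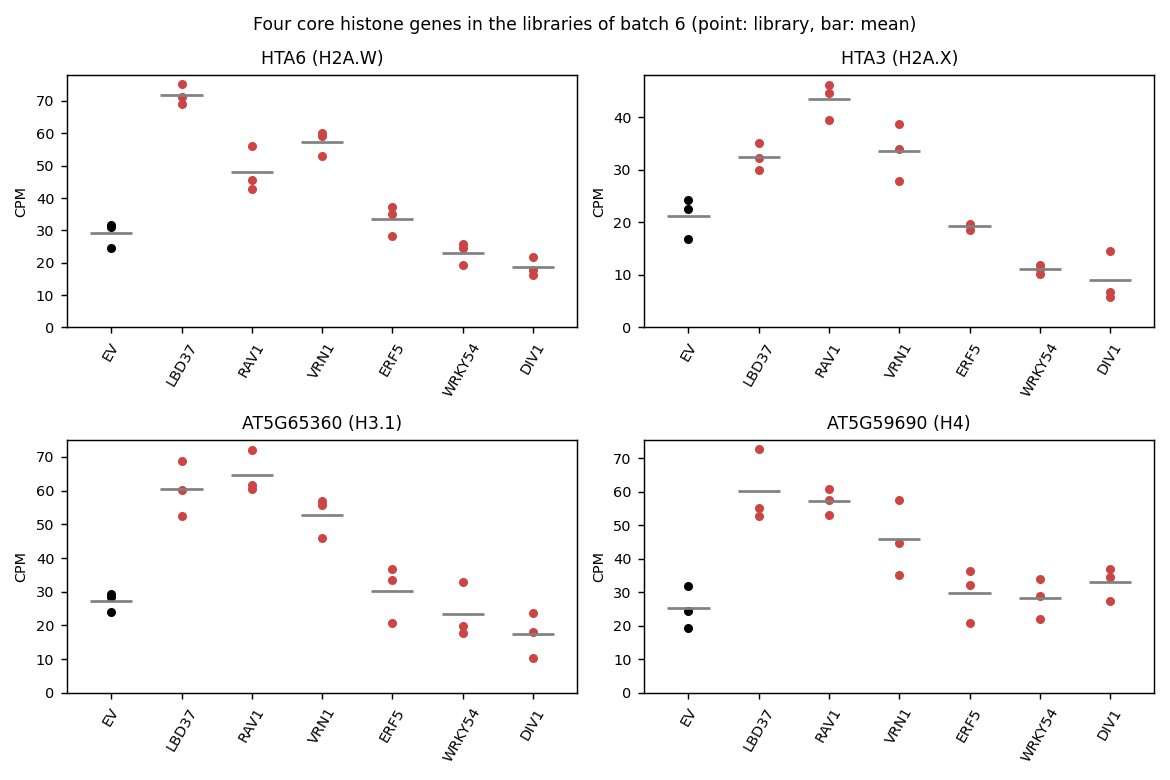
Each panel shows 1 gene in batch 6, with CPM on the vertical axis and EV and the 6 TFs on the horizontal axis; points are libraries and bars means. LBD37 and RAV1 points lie above the EV points for HTA6, HTA3, AT5G65360 and AT5G59690, and DIV1 points lie below EV for the first 3 of these genes but not for AT5G59690.

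Compared with the other 5 TFs of batch 6, LBD37 had 28 genes higher and 0 lower (10.5% of all genes higher), RAV1 21 higher and 2 lower (20.1% higher) and DIV1 1 higher and 25 lower (15.3% lower). This contrast holds no EV library, but the TFs of the batch that move the genes the other way enter it. WRKY54, with 3 genes lower against EV, had 24 lower and 2 higher in it (7.48% of all genes lower). VRN1 had 10 higher and 0 lower (7.65% higher), and ERF5 0 higher and 1 lower (2.99% lower). A high count of lower genes in this contrast was thus not particular to DIV1. HTA6 differed by 1.11 (SE 0.12, adjusted p = 6.59e-13) in LBD37, and HTA3 by -1.61 (SE 0.19, adjusted p = 1.03e-11) in DIV1. The median of all genes was 0.09 in RAV1 and -0.10 in DIV1 in this contrast, and that of the 37 genes 0.40 and -0.56. The root cell type markers summed to 89.7 to 98.5 CPM in EV, 85.2 to 114 CPM in LBD37, 42.3 to 48.3 CPM in RAV1 and 204 to 281 CPM in DIV1. SUC2, a phloem sugar transporter, made up most of the sum in DIV1. Without it the root markers summed to 35.6 to 39.7, 26.8 to 40.8, 21.4 to 24.3 and 13.6 to 32.5 CPM in the same order. Of the 10 root markers 1 was higher (SUC2) and 1 lower in DIV1, with a median log2 fold change of -0.43, and 0 were higher and 4 lower in RAV1. The mitotic genes summed to 25.7 to 34.4, 26.5 to 31.5, 38.2 to 47.2 and 16.5 to 22.7 CPM. Without CYCB1;1 they summed to 8.9 to 12.01, 6.54 to 11.2, 6.7 to 12.6 and 4.44 to 5.82 CPM, and the median over the 13 tested was -0.04 in RAV1 and -1.51 in DIV1, with 1 higher and 1 lower in RAV1 and 1 lower in DIV1. Their part in the results was not tested.

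**Figure D5:**
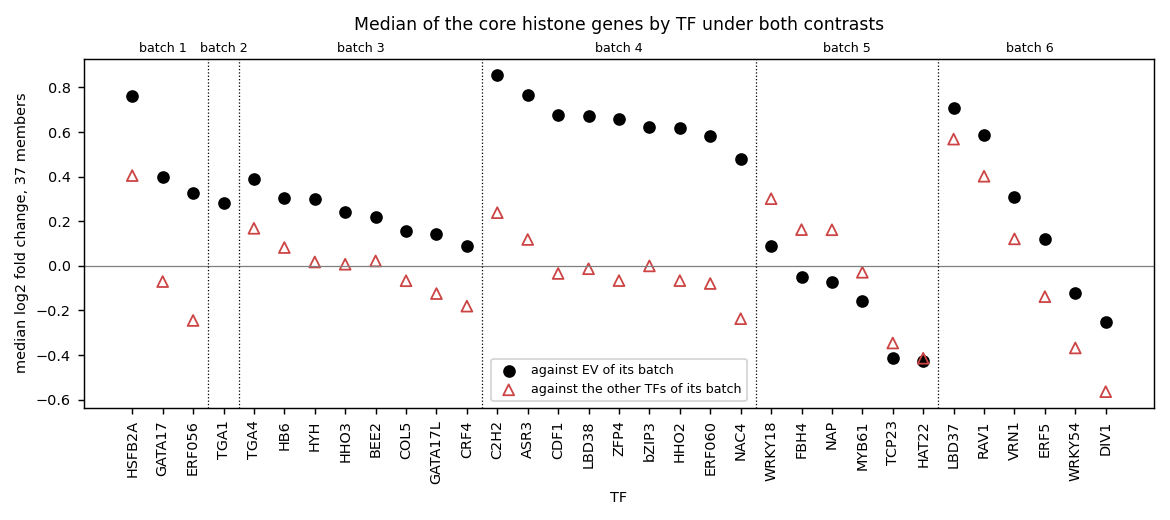
For each TF on the horizontal axis, grouped by batch, the filled circle gives the median log2 fold change of the 37 genes against the EV of its batch and the open triangle the median against the other TFs of its batch. In batch 4 the circles lie at 0.48 to 0.86 and the triangles at -0.24 to 0.24, whereas LBD37 has both at 0.57 or more.

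H2A.Z genes had 8 calls in all. HTA9, the most abundant of them, was higher in DIV1 (0.67, SE 0.16, adjusted p = 0.000635) and LBD37 and lower in HYH. HTA8 was at 2.05, 1.86 and 2.09 CPM in the EV of batch 6 and at 0.278, 0 and 0.666 CPM in DIV1, which is lower in all libraries, and was also lower in WRKY54 and higher in RAV1 and NAP. HTA11 was called once, lower in MYB61, where its 3 libraries were at 0 and EV averaged 0.593 CPM, so no fold is given.

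Linker histone genes encode the H1 proteins that bind DNA between nucleosomes. H1.1 (AT1G06760) and H1.2 (AT2G30620) were 0.69 (SE 0.10) and 0.76 (SE 0.10) higher on the log2 scale in C2H2, 0.38 (SE 0.10) and 0.44 (SE 0.10) higher in LBD37, and 0.65 (SE 0.10) and 0.70 (SE 0.10) lower in TCP23. H1.3 (AT2G18050) rose by 1.81 (SE 0.21) in HSFB2A and fell by 1.21 (SE 0.36) in RAV1. Of the 3 genes, none was called higher in RAV1, where most core genes were.

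Genes of DNA replication are a list apart from histones that is also active in S phase. Of 15 such genes, all tested, 0 to 3 were higher and 0 to 1 lower in C2H2, LBD38, ASR3, bZIP3, LBD37, HHO2, TCP23, HSFB2A and DIV1, 4 were higher in HAT22 and 8 were higher in RAV1. The shares of all genes called higher were 10.4% in HAT22, 12.2% in RAV1, 9.68% in HSFB2A and 9.89% in DIV1. They were 6.28% in TCP23 and 1.74% to 6.58% in the others, with 2.1% in LBD38 and 1.74% in ASR3. In a list of 15, 1 or 2 calls are few genes, so they are given as values only. Among the called ones were both ribonucleotide reductase genes of the list, which make deoxynucleotides. TSO2 (AT3G27060) rose by 1.02 (SE 0.10) in HSFB2A, 0.66 (SE 0.10) in LBD37, 0.44 (SE 0.10) in LBD38 and 0.34 (SE 0.10) in ASR3, and fell by 0.57 (SE 0.10) in TCP23. In RAV1 it was at 343 ± 14 CPM, against 149.5 ± 4.6 CPM in EV (SD, n = 3 each). RNR1 (AT2G21790) rose by 0.90 (SE 0.12) in HSFB2A, 0.65 (SE 0.12) in LBD38 and 0.49 (SE 0.12) in ASR3, and fell by 0.51 (SE 0.14) in DIV1. The median log2 fold change of the 15 genes was -0.00 in C2H2, -0.11 in LBD37, 0.41 in LBD38 and 0.87 in RAV1. In HAT22 cells, where histone genes fell, MCM7, ICU2 and MCM5, which encode replication proteins, rose by 2.47 (SE 0.85), 1.65 (SE 0.40) and 0.95 (SE 0.31), and the other called gene was RNR1. Averaged over all libraries, MCM7, ICU2 and MCM5 were at 1.38, 16.3 and 7.57 CPM of the raw total. HAT22 has 2 libraries, so the change of MCM7 in particular rests on few counts.

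Of the 14 mitotic cyclins and kinases, 13 were tested and at most 2 were called in any of the TFs described. CYCB1;1 (AT4G37490), a mitotic cyclin, was higher in HSFB2A (1.72, SE 0.18), ASR3 (0.84, SE 0.18), RAV1 (0.79, SE 0.18) and LBD38 (0.75, SE 0.18). KNOLLE, needed for the cell plate, was lower in HSFB2A (-1.91, SE 0.68) and CDKB2;1, a mitotic kinase, was lower in RAV1 (-2.09, SE 0.74). Averaged over all libraries, KNOLLE and CDKB2;1 were at 0.789 and 2.16 CPM of the raw total, so both changes rest on few counts. Histone chaperones, which carry histones to DNA, had 5 of 13 higher and 1 lower in HSFB2A, 4 higher in bZIP3, 3 higher and 1 lower in RAV1, 1 higher and 2 lower in DIV1, 5 higher in GATA17, 4 in ERF056, 3 in TGA1 and at most 1 call in C2H2, LBD38, ASR3, LBD37, HHO2, TCP23 and HAT22. Beside these counts, the share of all genes called higher was 9.68% in HSFB2A, 6.12% in bZIP3, 12.2% in RAV1, 6.28% in GATA17, 8.02% in ERF056 and 9.01% in TGA1, and 15.4% were lower in DIV1. NRP2 (AT1G18800) rose by 0.93 (SE 0.14) in HSFB2A, 0.88 (SE 0.13) in bZIP3, 0.66 (SE 0.14) in LBD38 and 0.63 (SE 0.13) in C2H2, and NRP1 (AT1G74560) by 1.72 (SE 0.15) in RAV1. SPT16 fell by 0.57 (SE 0.10) in DIV1 and 0.31 (SE 0.10) in LBD37. Of the 6 E2F and MYB3R regulators of the cell cycle, at most 2 were called in any of these TFs, where 1.74% to 12.2% of all genes were higher and 2% to 15.4% lower. MYB3R4 fell by 1.49 (SE 0.25) in RAV1, 1.57 (SE 0.26) in DIV1 and 1.25 (SE 0.33) in HAT22, RBR1 rose by 0.32 (SE 0.12) in RAV1 and fell by 0.36 (SE 0.13) in DIV1, and E2FB fell by 0.44 (SE 0.15) in C2H2 and 0.52 (SE 0.15) in HSFB2A.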

How the data were processed

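RNA-seq counts of 115 libraries were re-analysed. The authors aligned reads to TAIR10 with TopHat2, assigned them to genes (GenomicFeatures, GenomicAlignments), and deposited raw counts per gene, 1 library per file; strand setting and treatment of reads with several matches are not given in the sources used here. The 37 genes, the gene lists and the tests were chosen with earlier results of these data known. Groups and batches came from the sample labels.

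The filter asked for 10 counts or more in 3 libraries or more (passed by 22883 of 33016 genes and all 37 members). Counts were fitted with edgeR 4.0.16 (limma 3.58.1, R 4.3.3) over all libraries with TMM normalization and TF and batch as terms (39 coefficients, 76 residual degrees of freedom). Each TF was tested by the robust quasi-likelihood F-test against the EV of its batch and, except TGA1, against the mean of the other TFs of its batch, with Benjamini-Hochberg adjustment over all genes within a TF at 0.05. SE is the standard error of the log2 fold change; CPM is the count scaled to the TMM-adjusted library total, except for summed marker lists, which use the raw total. The fit was tested on simulated data. The study removed 1421 CHX-responsive genes from its targets; they were kept here, and of the members only AT3G27360 is among them.

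TFs described in depth were the 6 with the most members called, that with the most higher and that with the most lower; HSFB2A, RAV1, DIV1 and HAT22 were added after their values were seen. In each, up to 4 called members with the largest change and a mean of at least 5 CPM were named, with the most abundant member of each class, the members called in most TFs and in none, and up to 3 called genes of each list; genes described for patterns (AT1G07660, HTB9, the H2A.Z genes, AT4G40030, AT1G09200) were chosen after their values were seen. Names are those of RefSeq (TAIR10.1) where it gives one, and genes without one are given by ID. Promoters and positions were read from RefSeq TAIR10.1. Replicate pairs had Pearson's r of at least 0.94, and 0 of 113 pairs were identical. Alternatives were DESeq2 1.42.0, its size factors in edgeR, no filter, a replicate block, each TF with the EV of its batch alone, each replicate number left out, normalization without the TF genes, and, chosen after seeing the data, a promoter window of 500 bases and totals without the TFs of batch 4. Figures were drawn with Python 3.11.15 and matplotlib 3.10.9.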

Additional observations from a re-analysis of the deposited data

How the results depend on the processing

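Values under the alternatives are given for the results that moved. With the replicate 1, 2 or 3 libraries of every group left out in turn, the calls over the 33 TFs ranged from 197 to 376 higher and 29 to 53 lower. Against EV the range was 12 to 26 members for LBD38, 15 to 27 for ASR3 and 15 to 25 for bZIP3. It was 16 to 26 for LBD37, 13 to 25 for HHO2, 8 to 15 for TCP23 and 5 to 11 for DIV1. Against the other TFs of the batch it was 4 to 16 for C2H2, 0 to 1 for LBD38 and 0 to 3 for ASR3. There it was also 0 to 2 for bZIP3, 6 to 9 for TCP23 and 5 to 16 for HSFB2A. HAT22 is left out of these ranges, as it rests on 1 library without replicate 1 or 2. Over the 7 TFs described by rule, 4 to 8 calls were made among DNA replication genes, 1 to 2 among mitotic genes, 3 to 7 among chaperones and 0 to 1 among E2F and MYB3R genes. The EV libraries of batch 4 lay below all TF libraries for 16 to 26 members, with fewer values to overlap and no share of all genes computed. The EV sum of batch 5 was 2759.7 to 2846 CPM. These fits have fewer libraries, and fewer of all genes were called too: 1.95% to 3.68% higher and 2.15% to 4.05% lower, against 4.59% and 4.99%. Of the 16 TFs with at least 10 members higher and the 3 with at least 10 lower, all had a larger share of members than of all genes called under every alternative, except VRN1 without replicate 2. Without the TFs of batch 4, chosen after seeing the data, the higher calls were 162.

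With each TF fitted with the EV of its batch alone, 39 calls were lower over the 33 TFs, 7 in TCP23 and 3 in DIV1; the cause was not tested. ASR3 against the other TFs of its batch had 3 members higher in DESeq2 and 4 with the replicate block. E2F and MYB3R genes had 2 calls in DESeq2, with its size factors in edgeR, with the replicate block and with the EV of the batch alone, and 0 without the filter. With DESeq2 size factors the EV sums were 2223 CPM in batch 2 and 2681 CPM in batch 5. Of the 444 member calls, 439 were also made by DESeq2, 429 with its size factors and 414 without the filter. The number was 402 with the EV of the batch alone and 444 with the TF genes left out. Among the calls tested, 0 changed sign under any alternative. With the EV of the batch alone 441 of the 444 were tested. None of the 44 named changes reversed; 5 missed the threshold with the EV of the batch alone and 5, 12 and 4 without replicates 1, 2 and 3.

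Replicate numbers were not treated as pairing the samples, since not every same-numbered pair exceeded 0.1. The deviations of same-numbered TF and EV libraries correlated at -0.066 to 0.253 over 97 pairs, 27 of them over 0.1, among these all 3 of COL5. As a hint from the data, 51 of the 97 TF libraries were closest to their own number. In batches 1 and 4 this held for every TF library of replicates 1 and 3. The replicate block gave 464 member calls in place of 444; higher counts moved from 7 to 12 in TGA4, from 1 to 3 in ERF5 and from 1 to 2 in HHO3, and lower counts from 4 to 6 in MYB61 and from 0 to 1 in COL5 and BEE2. Counting precision was lowest for HTA8, HTA11, AT3G53650, HTR12, AT3G27360 and AT5G10390, whose lowest counts were 0.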
